A study of Mus musculus with 8 samples.

Results

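The genes described here are 10 factors of piRNA biogenesis and silencing, Mov10l1, Pld6, Asz1, Gtsf1, Btbd18, Mael, Ddx4, Henmt1, Pnldc1 and Rnf17, out of 21900 protein-coding mouse genes in the RefSeq table. They were taken by name. For each, the H2A.Z peaks and differential regions within 1000 bp of either end of the gene, and those inside it, were read from the deposited lists. H2A.Z, a variant of histone H2A, had been mapped by ChIP-seq (sequencing of DNA immunoprecipitated with crosslinked chromatin) in testis cells of mice at postnatal day 14, in control animals and in animals labelled Znhit1-CKO (named Znhit1-sKO in the protocol). ZNHIT1 is a subunit of the SRCAP complex, which places H2A.Z in nucleosomes, and the series asks how ZNHIT1 affects where H2A.Z lies in germ cells. Each genotype had 2 immunoprecipitated and 2 input libraries, 8 in all, but what was deposited is 1 list of 48752 control peaks, 1 list of 31156 Znhit1-CKO peaks and 1 list of 24367 differential regions. What drives the deletion, which strain was used and whether animals were pooled is not given in the sources used here. Tissue was whole testis, so fewer cells that carry a peak and less H2A.Z in each cell cannot be told apart.

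PIWI-interacting RNAs (piRNAs) are small RNAs that guide PIWI proteins to transposon transcripts in the male germ line, and a later pachytene class comes from long clusters transcribed in spermatocytes. A long precursor is unwound and cut at the mitochondrial surface, loaded into a PIWI protein, trimmed at its 3′ end and methylated there. Much of this takes place in germ granules, cytoplasmic bodies rich in RNA and Tudor domain proteins, and loss of many of these factors stops spermatogenesis. H2A.Z typically occupies nucleosomes at both sides of active and poised transcription starts.

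In control testes all 10 genes had an H2A.Z peak at a gene end, against 67.6% of all protein-coding genes. In the Znhit1-CKO list that peak was absent at 5 of them, Mov10l1, Asz1, Gtsf1, Btbd18 and Mael. The peak was absent at 11.5% of genes with a control gene-end peak and 29.8% of those in the width range of the 10. Averaged over genes within 10% of the width of each of the 10, the share was 36.7%. A narrower peak was present at Pld6, Ddx4, Henmt1, Pnldc1 and Rnf17. The authors' list placed a differential region at 7 of the 10 genes, near its background of 62.8%. No replicate value accompanies any peak, so none of these differences could be set against the spread between animals, and no test was made.

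RefSeq promoter sequences (build GRCm38.p6, the coordinates of mm10, from 250 bases before to 50 after the transcription start) were found for 8 of the 10 genes, all but Pnldc1 and Rnf17. The first set of sequences is shown because the authors' differential region runs into each of these promoters. Each is written 5′ to 3′ along the transcribed strand, and capitals mark the bases inside the region.
Asz1 promoter, chr6:18109012-18109311, minus strand: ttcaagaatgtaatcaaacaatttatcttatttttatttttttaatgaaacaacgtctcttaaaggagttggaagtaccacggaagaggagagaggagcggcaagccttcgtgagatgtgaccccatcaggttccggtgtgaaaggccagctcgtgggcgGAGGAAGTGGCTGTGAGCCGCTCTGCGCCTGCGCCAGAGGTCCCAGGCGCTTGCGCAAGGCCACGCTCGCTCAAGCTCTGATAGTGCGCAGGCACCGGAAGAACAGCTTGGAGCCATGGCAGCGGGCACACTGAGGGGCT
Gtsf1 promoter, chr15:103430378-103430677, minus strand: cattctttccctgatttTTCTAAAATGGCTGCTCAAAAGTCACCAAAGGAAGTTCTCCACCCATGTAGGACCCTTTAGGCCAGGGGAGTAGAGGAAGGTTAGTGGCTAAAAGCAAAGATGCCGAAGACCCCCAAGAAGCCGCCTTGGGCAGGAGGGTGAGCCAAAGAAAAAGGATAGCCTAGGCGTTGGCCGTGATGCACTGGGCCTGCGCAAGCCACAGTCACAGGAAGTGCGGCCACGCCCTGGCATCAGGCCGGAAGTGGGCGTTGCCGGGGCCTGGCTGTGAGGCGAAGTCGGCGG
Btbd18 promoter, chr2:84658829-84659128, plus strand: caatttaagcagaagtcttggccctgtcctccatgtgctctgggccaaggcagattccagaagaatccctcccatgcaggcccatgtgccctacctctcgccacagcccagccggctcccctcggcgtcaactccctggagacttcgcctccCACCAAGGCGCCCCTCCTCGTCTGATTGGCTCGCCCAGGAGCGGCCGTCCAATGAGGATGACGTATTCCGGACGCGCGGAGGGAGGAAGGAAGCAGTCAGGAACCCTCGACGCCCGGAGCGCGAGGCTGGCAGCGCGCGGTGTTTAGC
Ddx4 promoter, chr13:112652261-112652560, minus strand: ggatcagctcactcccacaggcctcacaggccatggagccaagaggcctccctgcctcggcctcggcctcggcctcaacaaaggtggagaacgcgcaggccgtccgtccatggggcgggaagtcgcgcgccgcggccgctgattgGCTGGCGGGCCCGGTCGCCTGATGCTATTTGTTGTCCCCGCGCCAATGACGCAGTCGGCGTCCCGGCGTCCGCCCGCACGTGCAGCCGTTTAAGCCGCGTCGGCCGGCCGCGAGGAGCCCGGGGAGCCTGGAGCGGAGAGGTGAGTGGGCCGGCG
Henmt1 promoter, chr3:108940307-108940606, plus strand: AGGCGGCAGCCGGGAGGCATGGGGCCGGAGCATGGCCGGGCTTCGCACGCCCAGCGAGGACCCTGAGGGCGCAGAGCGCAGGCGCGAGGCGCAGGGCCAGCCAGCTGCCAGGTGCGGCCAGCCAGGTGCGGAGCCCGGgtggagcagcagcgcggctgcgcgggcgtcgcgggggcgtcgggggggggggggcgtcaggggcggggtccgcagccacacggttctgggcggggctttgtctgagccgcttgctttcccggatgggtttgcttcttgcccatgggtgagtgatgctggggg
The region took up 140 of the 300 promoter bases at Asz1, 283 at Gtsf1, 148 at Btbd18, 155 at Ddx4 and 138 at Henmt1. At the 4 genes other than Henmt1 it held the transcription start. At Henmt1 it ended upstream of the listed start, at -113 bp, though inside the RefSeq gene, which begins further upstream.

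A second pair, Mael and Pld6, is shown because each carries the E-box CACGTG, marked in capitals, and because neither has a differential region. Mov10l1 meets both conditions as well, but its sequence is not shown. This motif is bound by the MGA and MAX proteins, which with E2F6 belong to a repressor complex at germ line genes in somatic and embryonic cells.
Mael promoter, chr1:166238695-166238994, minus strand: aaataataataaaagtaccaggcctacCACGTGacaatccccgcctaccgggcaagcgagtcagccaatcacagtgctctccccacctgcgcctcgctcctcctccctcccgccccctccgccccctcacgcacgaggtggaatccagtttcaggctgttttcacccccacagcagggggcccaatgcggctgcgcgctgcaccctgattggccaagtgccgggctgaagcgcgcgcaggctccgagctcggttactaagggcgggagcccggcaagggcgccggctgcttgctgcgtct
Pld6 promoter, chr11:59787608-59787907, minus strand: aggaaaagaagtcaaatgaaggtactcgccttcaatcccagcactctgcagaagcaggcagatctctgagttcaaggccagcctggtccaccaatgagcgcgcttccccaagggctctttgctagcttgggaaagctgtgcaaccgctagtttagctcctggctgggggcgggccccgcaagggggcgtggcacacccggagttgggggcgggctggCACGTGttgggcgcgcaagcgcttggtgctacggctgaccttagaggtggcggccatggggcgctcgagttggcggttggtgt
CACGTG occurred in a listed promoter of 4 of the 8 genes, Mov10l1, Pld6, Mael and Ddx4. Of all 21263 listed protein-coding promoters 7.84% held it. The share was 8.73% among promoters of genes whose control peak had no overlapping Znhit1-CKO peak, and 9.78% among those whose peak did, so the motif was about as frequent in either class. Of the 4 genes with the motif, Mov10l1 and Mael had no Znhit1-CKO peak and the other two had one. Its position differed with respect to H2A.Z. Counted from the transcription start to the leftmost motif base, it was at -246 in Mov10l1, outside the control peak, and at -223 in Mael, inside the upstream of 2 control peaks. At -29 in Ddx4 it lay under the control peak and the differential region but outside the Znhit1-CKO peak, and at -33 in Pld6 it lay under the peaks of both genotypes.

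The other motifs searched, on both strands, were GGCGGGAA, a site of E2F6, which was in 1 of the 8 genes (Ddx4) and 2.85% of promoters. The MYB core CNGTT was in 6 genes and 79.1% of promoters. The NF-Y motif CCAAT was in 5 genes and 38.2% of promoters. A match is only a match of letters. CpG content, given as observed over expected CpG, ran from 0.531 (Gtsf1) to 0.783 (Asz1) in the 5 genes without a Znhit1-CKO peak. It ran from 0.633 to 0.978 in the promoters of the 3 with one, Ddx4 having the highest. The ranges overlap. Over all genes the medians were 0.416 for 1570 promoters of genes without an overlapping Znhit1-CKO peak and 0.746 for 13112 promoters of genes with one, so each of the 5 genes lay above the median of its class.

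**Figure D1:**
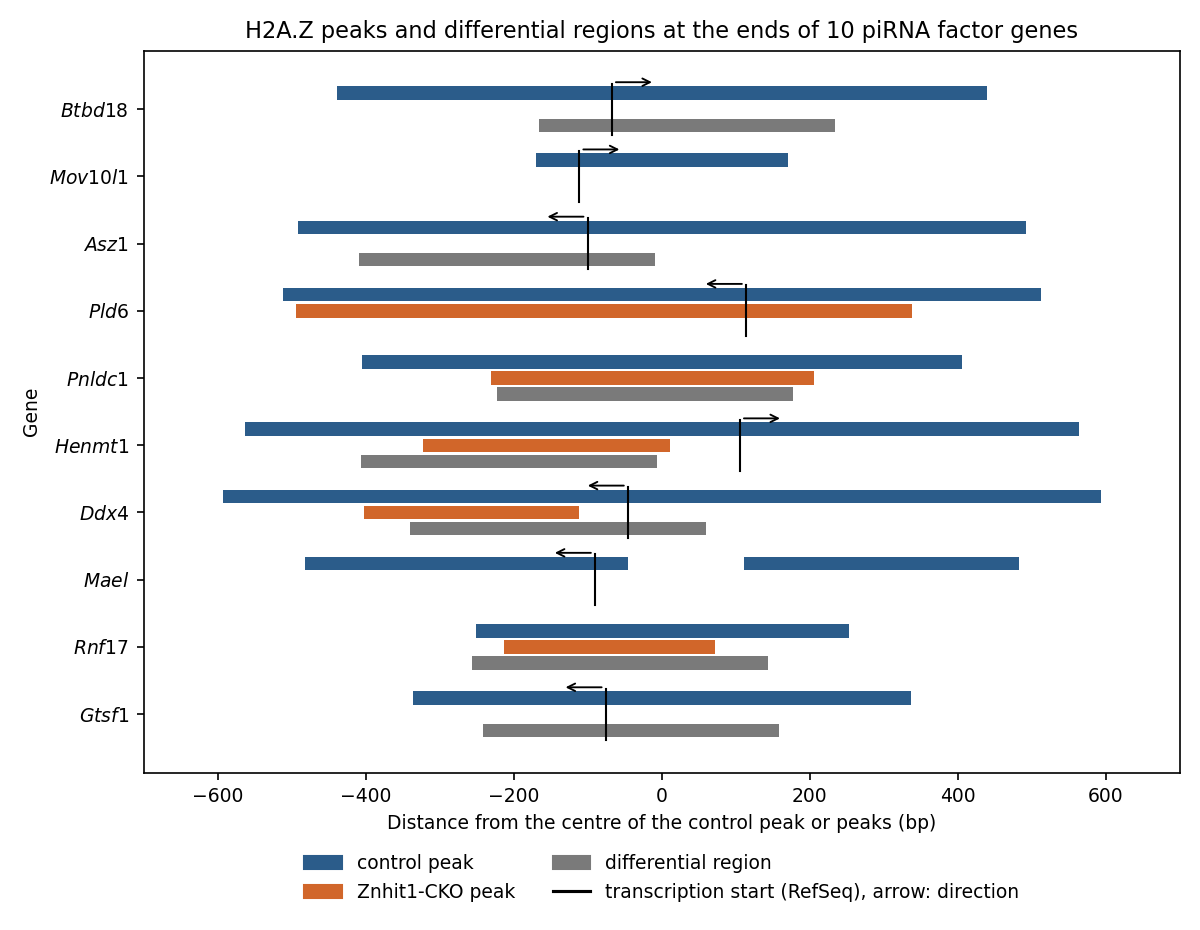
H2A.Z peaks of control (blue) and Znhit1-CKO (orange) testes and the authors' differential regions (grey) at the gene ends of the 10 genes, on a scale of bp from the centre of the control peak or peaks. Black lines mark the RefSeq transcription start nearest the peak, with an arrow for the direction of transcription, where one is listed; 5 genes have no orange bar, and the orange bars of Ddx4 and Henmt1 do not reach the start.

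Btbd18 encodes a nuclear protein needed to transcribe a set of pachytene piRNA clusters. Its control peak at chr2:84658708-84659585 was 878 bp wide, from -371 to 506 bp around the transcription start (minus is upstream), and no Znhit1-CKO peak overlapped it. A differential region covered the start. The peak is shared with Ctnnd1, the gene of the adhesion protein p120 catenin, whose listed start at 84658977 faces the other way, so the peak cannot be given to Btbd18 alone. The nearest Znhit1-CKO peak was 7361 bp away, inside Ctnnd1. Past the other end of Btbd18 a control peak of 959 bp, shared by Selenoh and Tmx2, overlapped a Znhit1-CKO peak of 1196 bp, so of these 2 neighbouring control peaks 1 was absent from the Znhit1-CKO list and 1 was wider in it.

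Of the factors that process precursors, MOV10L1 is the RNA helicase that unwinds them. Mov10l1 had the narrowest control peak, 340 bp (chr15:88982936-88983275), and had neither a Znhit1-CKO peak nor a differential region. The RefSeq gene Mlc1, on the opposite strand, begins at 88982693, within 1000 bp of this peak. Its listed start lies further into that gene, at 88978553. The peak therefore cannot be given to Mov10l1 alone. ASZ1 is an ankyrin repeat protein of the mitochondrial surface in germ cells. Asz1 had a control peak of 983 bp (chr6:18108670-18109652), a differential region from -90 to 309 bp around its start, and no Znhit1-CKO peak nearer than 60588 bp. Among genes whose control peak was within 10% of that width, 17.5% of 1296 had no overlapping Znhit1-CKO peak, so Asz1 was in the smaller class for its width. For Mov10l1 it was in the larger class, at 82.2% of 129 genes.

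PLD6 (also called Zucchini) is the endonuclease of the outer mitochondrial membrane that makes piRNA 5′ ends. Pld6 had the least narrowed peak of the 10 genes. Its control peak of 1023 bp (chr11:59787032-59788054) overlapped a Znhit1-CKO peak of 832 bp, which is 81.3% of the control width, and no differential region was listed. Over the 2982 genes with control peaks between 340 and 1186 bp and an overlapping Znhit1-CKO peak the median was 81.9%, so Pld6 lay at the middle of its class.

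The enzymes that finish the 3′ end both kept a narrowed peak with a differential region. PNLDC1 is the exonuclease that trims piRNA 3′ ends. At Pnldc1 a control peak of 811 bp (chr17:12909514-12910324) overlapped a Znhit1-CKO peak of 436 bp (53.8%), and the differential region covered nearly the same bases as the Znhit1-CKO peak. HENMT1 adds the 2′-O-methyl group to the trimmed end. At Henmt1 the control peak of 1126 bp (chr3:108939889-108941014) overlapped a Znhit1-CKO peak of 334 bp (29.7%). The control peak reached from -668 to 457 bp around the start. The Znhit1-CKO peak lay wholly upstream of this listed start, from -428 to -95 bp. The RefSeq gene itself begins further upstream, at 108939454, so this peak and the differential region lie inside the gene span. Henmt1 also had the only peaks inside the span of any of the 10 genes, about 13 kb into it: 483 bp in control and 504 bp in Znhit1-CKO, overlapping one another and with no differential region. Any peak inside the span and beyond 1000 bp of both ends was present at 25.6% of genes in control and at 19.0% in Znhit1-CKO, over the 11790 genes with a control gene-end peak and a span in the range of the 10. At Henmt1 the gene-end peak was thus the narrower in Znhit1-CKO and the inner one was not.

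Among the germ granule genes 1 lost its peaks and 2 kept a narrower one. DDX4 (VASA) is the DEAD-box helicase that marks germ cells. Ddx4 had the widest control peak of the 10, 1186 bp (chr13:112651763-112652948), and a Znhit1-CKO peak of 291 bp, 24.5% of it. The remaining peak lay downstream, from 67 to 357 bp after the start, and held none of the 300 promoter bases. Of kept genes in the range of control widths of the 10, 0.637% had a smaller ratio, and 2.31% had a smaller one than Henmt1. Ddx4 and Henmt1 are at the top of that range. No Znhit1-CKO peak in the list was under 188 bp, so genes with the narrowest control peaks could not reach such ratios. Shares among kept genes of like width are not given. RNF17 is a RING finger protein with Tudor domains. At Rnf17 a control peak of 504 bp (chr14:56402630-56403133) overlapped a Znhit1-CKO peak of 284 bp (56.3%) with a differential region. MAEL, an HMG-box protein of germ granules, is needed for piRNA production and transposon silencing. Mael had 2 control peaks, 436 bp over the transcription start (chr1:166238352-166238787) and 372 bp upstream of it (chr1:166238945-166239316). Neither overlapped a Znhit1-CKO peak, the nearest of which was 14535 bp away, and no differential region was listed.

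GTSF1 is a zinc finger protein that binds PIWI proteins and speeds their slicing of targets. Its gene had a control peak of 674 bp (chr15:103430166-103430839), from -412 to 261 bp around the start. A differential region was listed there, and the nearest Znhit1-CKO peak was 63034 bp away. Of 572 genes with a control peak within 10% of that width, 43.4% had no overlapping Znhit1-CKO peak, so either outcome was common.

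**Figure D2:**
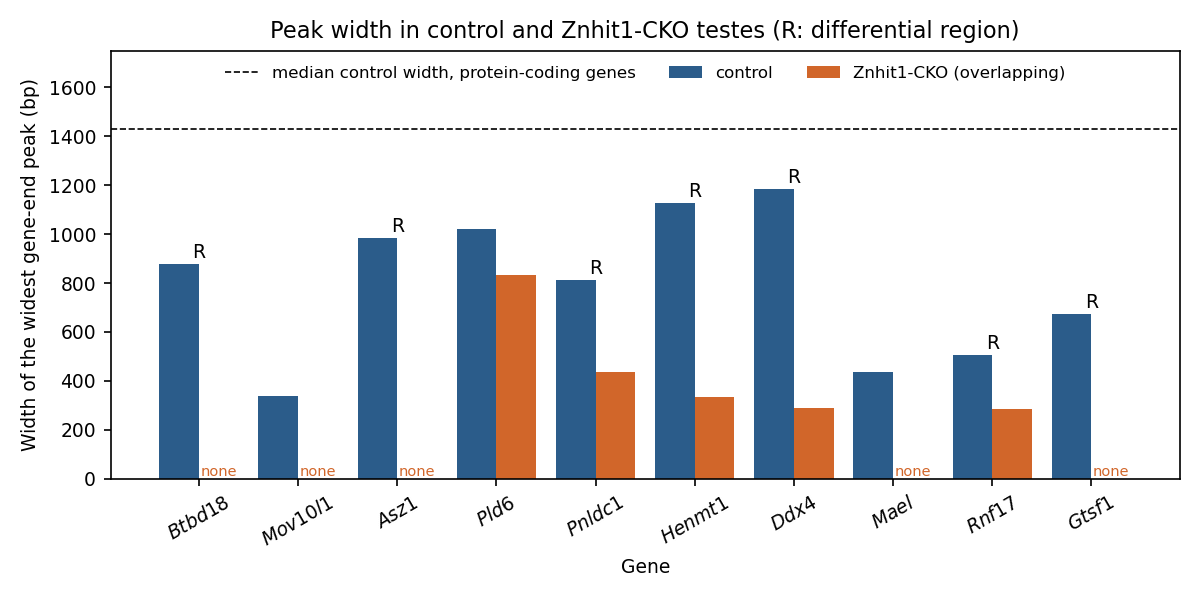
Width in bp of the widest gene-end peak in control testes (blue bars) and of the widest Znhit1-CKO peak that overlaps a control gene-end peak (orange bars) at the 10 genes, with 1 list per genotype and so no error bars. R marks a differential region, and the dashed line is the median control width over protein-coding genes, 1429 bp; all 10 control bars are under it.

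Across the 10 genes, 5 had lost the gene-end peak, where lost means a control and no Znhit1-CKO peak within 1000 bp of a gene end, and the background of 11.5% was taken over 14815 protein-coding genes. The same 5 genes had no Znhit1-CKO peak overlapping the control peak, against 11.0% of genes. Control peaks of the 10 genes were narrow, and narrow peaks were absent from the Znhit1-CKO list far more often. Their median width was 844.5 bp against 1429 bp. Among the 4224 genes with control peaks between 340 and 1186 bp, 29.8% were lost and 29.4% had no overlapping peak. Weighted to the widths of the 10 genes themselves, the mean share without an overlapping peak was 36.6%, and 5 of 10 is not far from it. The genes were also chosen with earlier results of these data known, so their share is no evidence that piRNA factors differ from other genes.

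Width alone did not order the 10 genes. Those without an overlapping Znhit1-CKO peak had control widths of 340, 436, 674, 878 and 983 bp, and those with one of 504, 811, 1023, 1126 and 1186 bp, so the groups overlap. All 3 genes above 1000 bp had an overlapping peak, and of protein-coding genes with 1000 to under 1200 bp only 8.8% had none. Of the 5 without an overlapping peak, Asz1, Btbd18 and Gtsf1 were in the smaller class for their width, since 17.5%, 27.3% and 43.4% of genes of like width had none. Of the 5 with one, only Rnf17 was, at a width where 66.1% of genes had none.

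**Figure D3:**
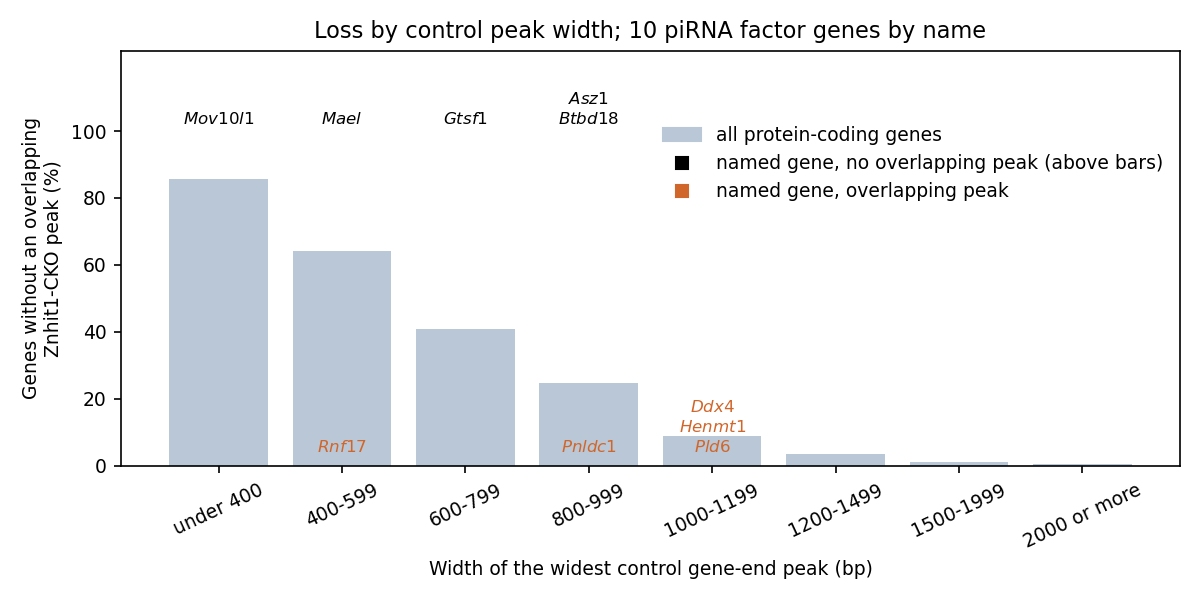
Share of protein-coding genes (grey bars, %) whose control gene-end peaks had no overlapping Znhit1-CKO peak, by width of the widest control peak in bp. Names above the bars are those of the 10 genes without an overlapping peak and orange names those with one; the share falls from 85.6% under 400 bp to 0.609% at 2000 bp or more.

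The differential regions, all but 5 of which were exactly 400 bp wide in the whole list, carry no sign. They lay at 7 of the 10 genes, against 54.7% of genes with a control gene-end peak in the same width range. Loss from the list and a differential region did not go together in these genes. Of the 5 genes without a Znhit1-CKO peak, 3 had a region (Asz1, Gtsf1, Btbd18), where 60.7% of all such genes had one, and of the 5 with one, 4 did (Ddx4, Henmt1, Pnldc1, Rnf17). Mov10l1 and Mael, the genes without a region among the lost, had the 2 narrowest control peaks of the 10. Among genes of such width a region was less common, at 19.4% for the width of Mov10l1 and 38.2% for that of Mael.

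Relative to the transcription start, all 8 genes with a listed start had it under a control peak, as did 89.5% of 11772 protein-coding genes with a control gene-end peak and a listed start. Of the 3 such genes with a Znhit1-CKO peak, that peak held the start only at Pld6. Centres of the differential regions were 109.5 bp downstream of the start at Asz1, 101.5 bp at Btbd18 and 94.5 bp at Ddx4. At Gtsf1 the centre was upstream, at -33.5 bp, and at Henmt1 at -312.5 bp. In 3 of the 5 genes the region was therefore centred at nearly the same distance past the start. Where regions are centred over all genes is not given, so this cannot be called particular to these genes.

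The nearest protein-coding genes with control peaks of their own gave the local background. Of 20 such neighbours, 2 per gene, 19 had an overlapping Znhit1-CKO peak, at a median of 82.9% of the control width (56.7 to 125%), and 14 had a differential region (62.8% of all genes with a control gene-end peak). Their control peaks were wider, with a median of 1544 bp and a range of 903 to 2217 bp, so they are not matched to the 10 genes in width. The neighbour without an overlapping peak was Atp12a, an ion pump gene next to Rnf17, with a control peak of 903 bp. Within 100000 bp of the 10 gene-end peaks, 42 of 63 other control peaks (66.7%) overlapped a Znhit1-CKO peak. The share over all 48752 control peaks is not given, so these surroundings cannot be called usual or unusual. Each of the 5 lost genes had at least 2 other control peaks within 100000 bp that overlapped one, although at Asz1 and Gtsf1 no Znhit1-CKO peak lay within 60588 and 63034 bp.

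**Figure D4:**
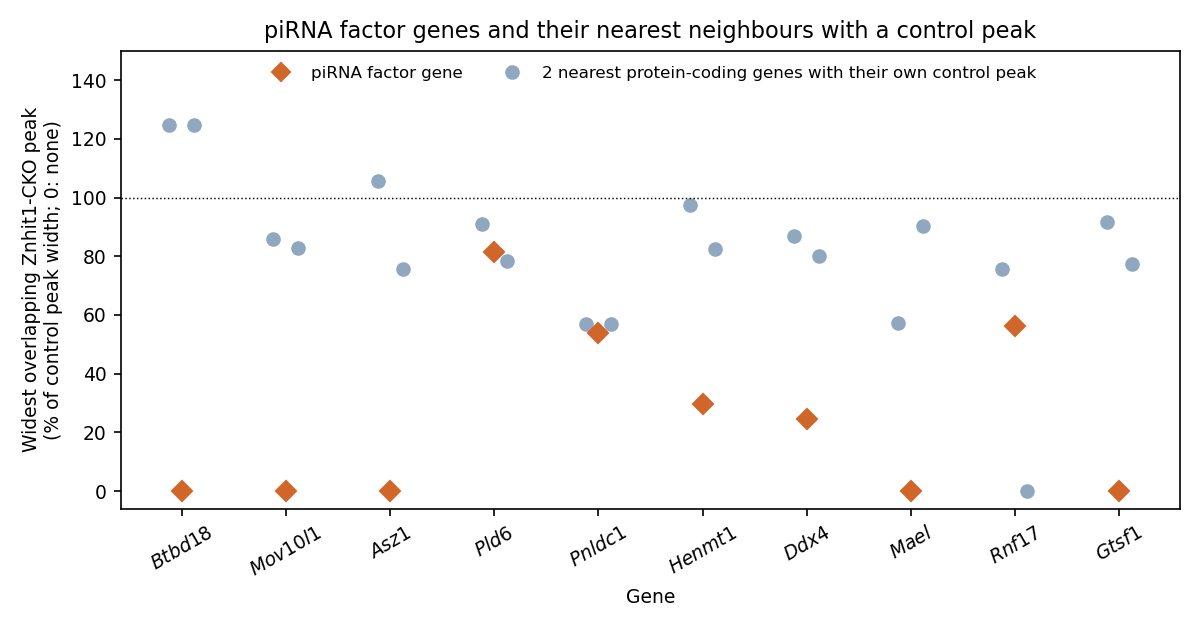
Width of the widest overlapping Znhit1-CKO peak as a percentage of the control peak width, for each of the 10 genes (orange diamonds) and its 2 nearest protein-coding genes with a control peak of their own (blue circles); 0 means no overlapping peak. At Btbd18 and at Pnldc1 the 2 neighbours share 1 peak, and 5 diamonds but 1 circle lie at 0.

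Outside the 10 genes, 24 further genes of the pathway were examined, all found in the table (Dnmt3c as Dnmt3b-ps1). Of these, 20 had a control gene-end peak, of which 10 were lost, and 9 had no overlapping Znhit1-CKO peak. Differential regions were listed for 14 of the 20. At like width the mean share without an overlapping peak was 25.3%, and with a region 57.8%. This list, too, was chosen with earlier results known. Among PIWI genes and slicing partners, Piwil1 (706 bp), the PIWI protein of pachytene spermatocytes, and Piwil4 (449 bp), the nuclear PIWI protein of fetal germ cells, had no overlapping peak at the gene end. Inside Piwil4, however, a wider control peak of 970 bp overlapped a Znhit1-CKO peak of 833 bp. Exd1, a partner in piRNA biogenesis, had 1608 bp against 1863 bp in control. Piwil2 had no gene-end peak, but a control peak of 996 bp inside the gene overlapped a Znhit1-CKO peak of 509 bp.

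Of 7 Tudor domain genes with a gene-end peak, 3 had no overlapping Znhit1-CKO peak: Tdrd9 (801 bp), Tdrd12 (479 bp) and Stk31 (1091 bp). The mean share at like width was 27.4%. Tdrd5, a germ granule gene, had 848 bp against 1550 bp in control, while at Tdrkh, which anchors PIWI proteins to mitochondria, the Znhit1-CKO peak was the wider, 1472 against 1388 bp. Gpat2, of the mitochondrial surface like Asz1 and Pld6, had no overlapping peak (698 bp). Of the genes of nuclear silencing and DNA methylation, Morc1 (1499 bp), Spocd1 (665 bp) and Tex19.1 (837 bp) had none, and Tex15 had 1051 bp against 1781 bp in control. Each of the 9 without an overlapping peak had a differential region, as did 60.7% of all such protein-coding genes. Those nearest in control width to Gtsf1, of the same class, were Spocd1, Gpat2 and Piwil1.

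Besides Btbd18, the listed genes upstream of the pachytene clusters were Mybl1 and Tcfl5. They and the genes for arginine methylation of PIWI proteins, Prmt5 and Wdr77, had overlapping Znhit1-CKO peaks. This was the larger class at their control widths. Of all genes, 1.02% had no overlapping peak at 1500 to under 2000 bp. The share was 24.7% at 800 to under 1000 bp and 40.9% at 600 to under 800 bp. Mybl1, whose product A-MYB drives pachytene piRNA clusters, had a control peak of 1923 bp that overlapped 2 Znhit1-CKO peaks, the wider of 940 bp, and a differential region. Tcfl5, a further transcription factor of this stage, had 660 bp against 936 bp. Btbd18 was thus the only 1 of these 3 transcription regulators without an overlapping peak. PRMT5, with its partner WDR77, methylates arginines of PIWI proteins so that Tudor proteins bind. Prmt5 had 220 bp against 763 bp in control, and Wdr77 had 1304 bp against 1543 bp. Among 11 pathway genes with an overlapping peak the median was 70.5% of the control width (28.8 to 128%), with 9 of the 11 narrower, against 53.8% (24.5 to 81.3%) in 5 of the 10 genes. Under 50% of the control width lay 3 of the 11 and 2 of the 5 (Ddx4 and Henmt1), where the background was 13.4% of 13186 genes and 13.3% in the width range of the 10 genes.

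**Figure D5:**
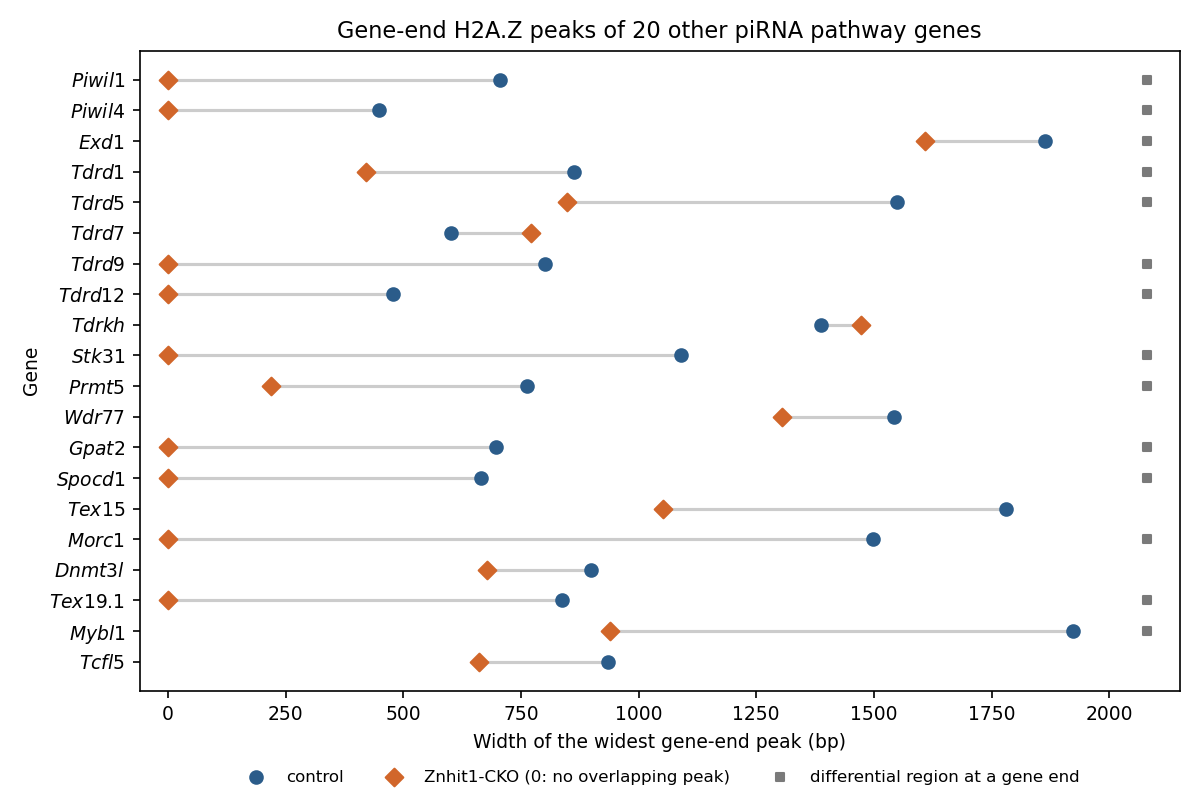
Width in bp of the widest gene-end peak in control (blue circles) and of the widest overlapping Znhit1-CKO peak (orange diamonds, 0 where there is none) for the 20 other piRNA pathway genes with a control gene-end peak. Grey squares at the right mark a differential region; 9 diamonds lie at 0 and all 9 of those genes have a square.

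Marker genes of the cell types of the testis were counted the same way. Of 14 somatic markers with a control gene-end peak (23 listed, for Sertoli, Leydig, peritubular, endothelial and immune cells) 4 had no overlapping Znhit1-CKO peak, where the mean share at like width was 17.9%. Of 17 germ cell markers with a peak (19 listed) 7 had none, against 20.0% at like width. Of these 7, 5 were among the 8 spermatocyte markers with a peak, Sycp1, Sycp2, Sycp3, Spo11 and Piwil1, the last being in the pathway list as well. The share at like width was 20.4%. Hormad1, Dmc1 and Hspa2 had an overlapping peak. The other 2 of the 7 were among 4 markers of differentiating spermatogonia with a peak, Stra8 (205 bp) and Sohlh1 (452 bp). Kit and Sohlh2 had an overlapping one. Of all genes, 85.6% had none under 400 bp and 64.3% at 400 to under 600 bp. All 5 markers of undifferentiated spermatogonia had an overlapping peak, but their control peaks were wide (median 2622 bp), and at such widths only 2.66% of genes had none. The part that a different mix of cells has in the loss at the 10 genes was not tested.

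The counts moved with the peak size and the overlap required. With only peaks of at least 500 bp in both lists, 7 of the 8 genes with a control peak were lost, against 14.5% of all genes under that setting. Mael and Mov10l1 then had no control peak, and the Znhit1-CKO peaks of Ddx4, Henmt1, Pnldc1 and Rnf17 are all narrower than 500 bp. Where 50% of both peaks had to overlap, Ddx4 and Henmt1 joined the 5 genes without a matching peak, against 23.4% of all genes. Neither share is matched in width, and the 10 genes had narrow control peaks (median 844.5 bp against 1429 bp). These counts therefore do not show an excess over genes of like width.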

How the data were processed

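H2A.Z ChIP-seq and input libraries came from testes of control and Znhit1-CKO mice at postnatal day 14, 4 groups of 2 libraries. The submitters' processing notes name build mm10 and MACS2 2.2.4 for peaks, with BWA 0.7.17 and, for reads, cutadapt 2.5, Picard 2.20.7 and SAMtools 1.9. The authors deposited 3 lists of regions with chromosome, start and end only: no count, fold, p or sign. How the threshold was set, whether replicates were pooled and how deep each library was is not given in the sources used here, so a peak near the threshold may be in or out of a list for any of these.

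Gene positions are those of RefSeq on GRCm38.p6. Peaks within 1000 bp of a gene end were matched between lists by an overlap of at least 1 bp, and start coordinates count from 1. No test was run. Shares over all protein-coding genes, overall or at like control width (within 10%), stand beside the counts for the 10 genes and the main lists. The 10 genes, the lists and the motifs were chosen with earlier results of these data known. All 10 genes are named. Of other pathway genes, those named by rule are the 4 widest control peaks without and the 4 with an overlapping Znhit1-CKO peak, 3 nearest in width to a lost gene of the same class, and sharers of a peak. Other names were chosen after their values were seen. Width-matched shares and neighbours were added after seeing the files. Overlap counts were checked against bedtools 2.31.1 (0 of 48752 control peaks differed) and classes on simulated data (0 of 2000 genes differed). Python 3.11.15, numpy 2.4.6, pandas 2.3.3 and matplotlib 3.10.9 were used.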

Additional observations from a re-analysis of the deposited data

How the results depend on the processing

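No paired analysis was possible because replicates are not separate in the deposited lists, and for that reason no replicate could be left out. The number of the 10 genes without a gene-end peak in Znhit1-CKO (5) was 6 with a window of 500 bp. Henmt1 was added there, although its Znhit1-CKO peak still overlapped its control peak. The number was 4 with 2000 bp (11.4% of all genes), where the peak of Selenoh and Tmx2 entered the window of Btbd18. It was 7 of 8 with peaks of at least 500 bp, where the share over all genes was 14.5%. The number without an overlapping peak was 5 with a gap of 500 bp and 7 with an overlap of 50% of both peaks (23.4% of all genes). At transcription starts alone 5 of 8 genes had lost the peak. No share over all genes is given for the 500 bp window, the 500 bp gap or transcription starts, nor for the pathway counts there. The shares that are given are not matched in width. The number with a differential region (7) was 6 with the 500 bp window, and 7 with 2000 bp or with regions on control peaks only. Of the other pathway genes 10 of 20 were lost, 9 of 22 with 2000 bp, 10 of 18 with 500 bp or with wide peaks only, and 7 of 17 at transcription starts. The median width ratio was 53.8% by widest or summed peak. Counts at the transcription start, other than that of lost genes among the 10, were added after seeing the data. Depth per library is unknown.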

Other observations

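Some pathway genes had a peak inside the gene in the Znhit1-CKO list that no control peak overlapped. These were chosen after their values were seen. Tdrd5, whose product is a Tudor domain protein of germ granules, had a Znhit1-CKO peak of 1507 bp at chr1:156284217-156285723, inside the gene and away from both ends. Among the 5568 Znhit1-CKO peaks that overlapped no control peak, only 3 (0.0539%) were at least that wide. No other gene of the table overlaps it, and no differential region was listed there. Morc1, which silences transposons in fetal germ cells, had such a peak of 688 bp (6.23% at least as wide) while its control gene-end peak of 1499 bp had no overlapping Znhit1-CKO peak. Narrower ones lay inside Tdrd1 (464 bp), Tdrd12 (505 bp) and Dnmt3c (296 bp). None of the 10 genes had one. The share of all protein-coding genes with such a peak is not given, so this cannot be called a difference between the 10 genes and other genes.

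Tdrd6 and Fkbp6, a Tudor domain gene and the gene of a chaperone of piRNA biogenesis, fell outside the gene-end counts because their control peaks lay more than 1000 bp inside the RefSeq gene. At Tdrd6 the control peak was 1582 bp wide and at Fkbp6 812 bp. No Znhit1-CKO peak overlapped them, and a differential region lay on each.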
